A study of Mus musculus with 6 samples.

Results

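The genes described here are 41 genes of DNA replication and S phase, taken by symbol from a list of replication proteins and found in a table of 53677 gene symbols. All 41 were in the table, and all 41 reached the mean of 1 RPKM (reads per kilobase of gene, scaled to library size) over 6 libraries that was needed for testing. The RNA came from ST-HSC (short-term hematopoietic stem cells, which self-renew for a limited time), sorted from bone marrow of C57BL/6J mice. The sort took cells that lack lineage markers and CD150 and carry Kit and CD48. One group of 3 libraries came from wild-type mice (WT, with the genotype label dnTCF4-/-), and the other group of 3 from mice that express dnTCF4, a dominant-negative form of the transcription factor TCF4 (genotype label dnTCF4+/+). The labels name 3 mice of each genotype and do not give their age, the promoter that drives dnTCF4 or the cells that express it. A dominant-negative TCF4 competes with the cell's own TCF/LEF factors, which read Wnt signals through β-catenin, and the comparison asks how the progenitors' RNA differs when it is present.

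A cell copies its DNA once per cycle, in steps that each have their own proteins. In G1 the origin recognition complex, Cdc6 and Cdt1 load the MCM helicase onto DNA. At the start of S phase Cdc45, the GINS complex and Mcm10 turn it into a working helicase. Polymerases, the sliding clamp PCNA and its loader RFC then copy both strands, while RPA covers single-stranded DNA and nucleotide enzymes supply the building blocks. Many of these genes are transcribed at the G1/S boundary under the control of E2F factors, so their RNA is commonly read as a sign of cycling cells. Long-term stem cells of the marrow rest most of the time, and progenitors such as those sorted here cycle far more often.

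Depth was 61800000 to 67700000 counted reads per WT library and 57400000 to 110900000 per dnTCF4 library, as recovered from the steps of the RPKM values. For the 36 replication genes whose values came out as whole reads in all 6 libraries, a library held between 173 and 135491 reads per gene, so counting error was small for most of them. Kit (35.5 to 97.1 RPKM) and Cd48 (813 to 1415 RPKM) were read in every library and Slamf1, which encodes CD150, was at 0.742 to 1.18 RPKM, as the sort describes. Immunoglobulin transcripts took 25.5% to 44.1% of summed RPKM in WT and 3.27% to 6.33% in dnTCF4. Reads of such transcripts count toward the library size by which every gene is scaled, so results are also given after median ratio scaling, which sets each library by its median gene.

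Replication genes were abundant. Their mean levels ran from 2.63 RPKM for Gins3 to 257 RPKM for Pcna, with a median of 37.2 RPKM over the 41 genes against 5.83 RPKM over all 11326 genes tested. Of the 41, 36 lay above the median level of the tested genes and 12 lay above its 90th percentile. Levels differed widely among partners of 1 complex, and the plot of RPKM by library shows that most genes kept their place in the order across libraries.

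**Figure D1:**
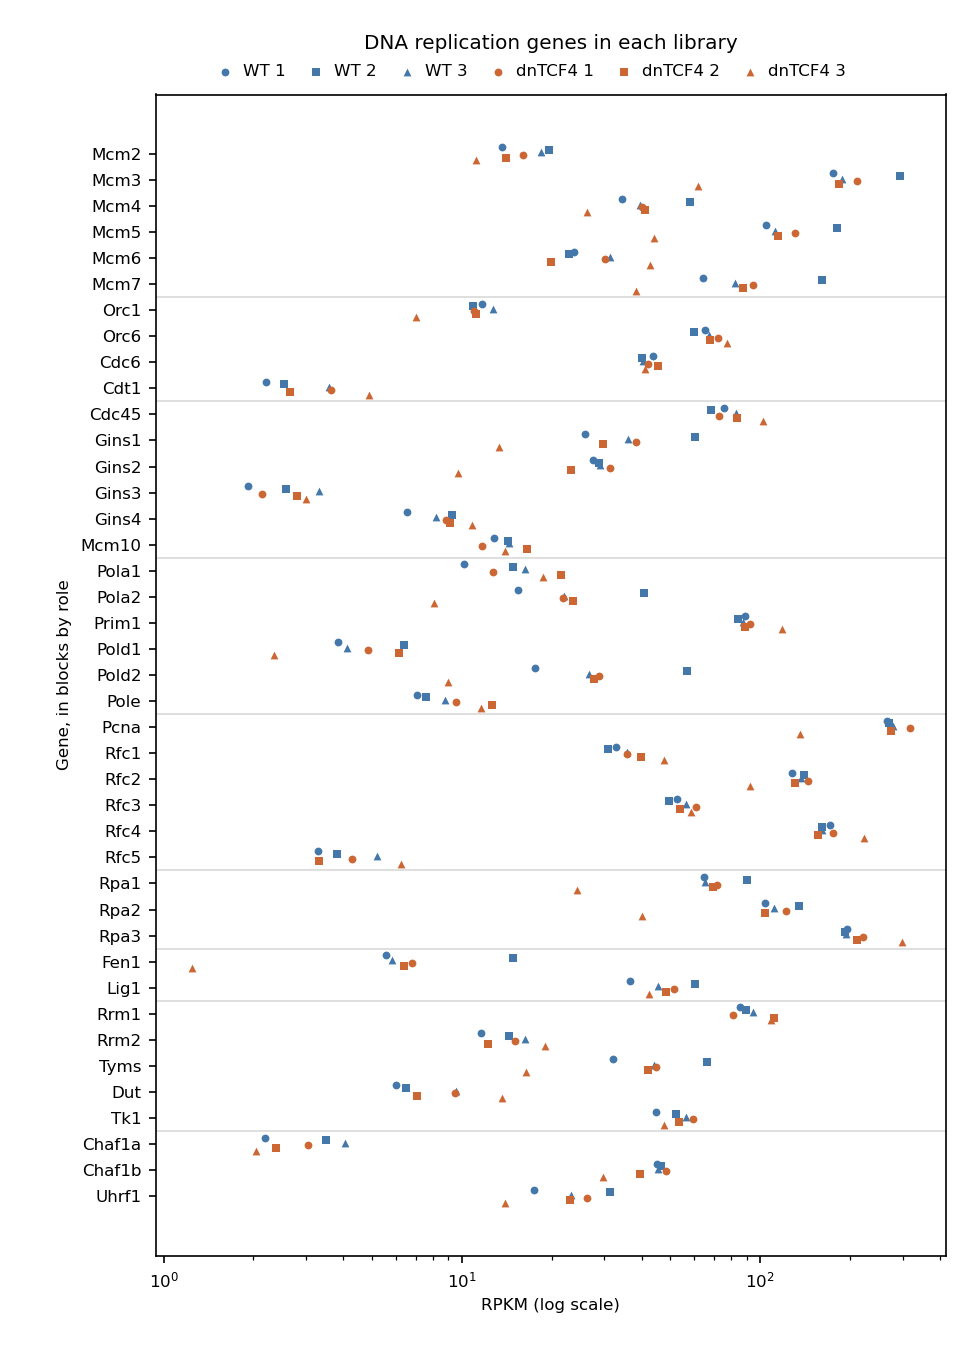
RPKM (log axis) of the 41 DNA replication genes in the 3 WT and 3 dnTCF4 libraries, with genes in blocks by role and 1 point per library. Most genes show 6 points close together, while for genes such as Mcm3, Rpa1, Pold2 and Fen1 the point of dnTCF4 3 lies far to the left and that of WT 2 to the right.

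No replication gene passed the test between the genotypes. Values were compared with limma on log2(RPKM + 1), fitted on all genes tested, with Benjamini-Hochberg adjustment, and an adjusted p under 0.05 was called. Of the 41 genes, 0 were called, with limma adjusted p from 0.49 to 0.98, where 0.3% of all genes tested were called (0.0441% higher and 0.256% lower in dnTCF4). With the replicate number as a block, which pairs libraries of the same number, 0 of 41 were called, where 0.433% of all genes were. At an unadjusted p under 0.05 there was 1 gene, Pole, where 9.62% of all tested genes passed. Voom on reads recovered from the RPKM values called 0 of 36 genes, with 1 at an unadjusted p under 0.05. The shares of all genes for that fit are not given. The median log2 fold change (dnTCF4 minus WT) over the 41 was 0.01, against 0.14 over all genes tested. Of the 41, 21 had higher and 20 lower values in dnTCF4, while 68.5% of all tested genes had higher values. After median ratio scaling 7 of the 41 were higher, against 41.4% of all genes, and the medians were -0.21 and -0.05. Rescaling without the immunoglobulin genes gave 7 of 41 higher again, with a median of -0.18 against -0.02. In bulk RNA, a difference in the share of cells in S phase and one in the RNA of these genes per cell cannot be told apart.

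The precision differed from gene to gene. For 29 of the 41 genes the 95% interval of the log2 fold change lay within -1 and 1, which is within 2-fold either way on this scale, and for 1 gene, Pole, it left out 0. The widest was that of Fen1, from -2.12 to 0.49. The values of the 3 dnTCF4 libraries lay apart from the 3 WT values in 3 genes (Orc6, Pole and Rpa3), all higher in dnTCF4, where 15.4% of all tested genes were apart and higher and 2.26% apart and lower. After median ratio scaling 1 of the 41, Pole, was apart and higher and 2 apart and lower, where 5.09% and 6.18% of all genes were. A test of 3 libraries against 3 by exact permutation cannot give a two-sided p below 0.1 for any single gene, and none was run.

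**Figure D2:**
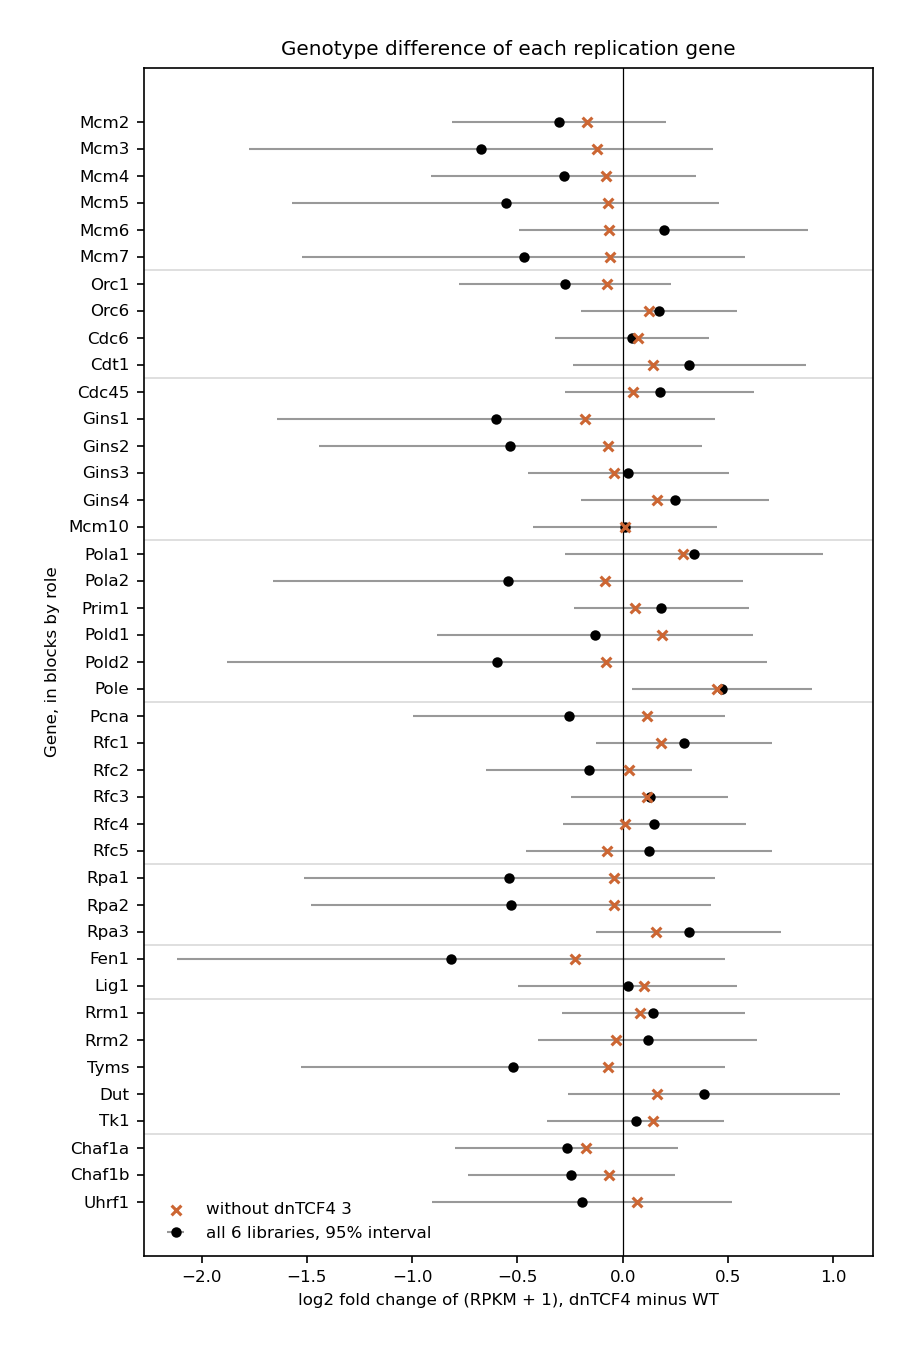
Log2 fold change of RPKM + 1, dnTCF4 minus WT, for each replication gene, in blocks by role: black points with 95% intervals from limma on all 6 libraries, and orange crosses for the fit without dnTCF4 3. The intervals of 40 of the 41 genes include 0, and the crosses of the genes farthest to the left, such as Fen1 and Mcm3, move close to 0.

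The MCM2-7 helicase is a ring of 6 related subunits that unwinds the DNA ahead of the fork. Mcm3, the most abundant of them, was at 176, 294 and 188 RPKM in WT 1, 2 and 3 and at 210.3, 183 and 61.8 RPKM in dnTCF4 1, 2 and 3. The first pair of dnTCF4 libraries lay inside the WT range, and dnTCF4 3 lay far below it. Its log2 fold change was -0.67 (SE 0.47, limma adjusted p = 0.68), and -0.12 without dnTCF4 3. Mcm5 (105, 181 and 112 RPKM in WT, and 130.4, 115 and 44.1 RPKM in dnTCF4) and Mcm7 (64.2, 161 and 82.6 RPKM in WT, and 94.5, 87.8 and 38.2 RPKM in dnTCF4) had the same shape, with WT 2 highest and dnTCF4 3 lowest. Mcm6 did not. It was at 23.7, 22.8 and 31.4 RPKM in the WT libraries and 30.3, 19.9 and 42.7 RPKM in dnTCF4, and its highest value was in dnTCF4 3. Mcm2 and Mcm4 were lowest in dnTCF4 3, at 11.1 and 26.3 RPKM, and highest in WT 2, at 19.5 and 57.9 RPKM. Of the 6 subunits 1, Mcm6, had a higher mean log2 value in dnTCF4, and the median of the 6 log2 fold changes was -0.39. Without dnTCF4 3 it was -0.08, and with WT 2 also left out it was 0.12, with 4 of 6 higher.

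Origin licensing factors load that ring. Orc6, a subunit of the origin recognition complex (GRCm38 chromosome 8, 85299632 to 85308278), was at 65.2, 59.9996 and 67.2 RPKM in the WT libraries and 72.1, 68.0 and 77.3 RPKM in dnTCF4. The groups did not overlap, but the gap between the highest WT and the lowest dnTCF4 library was under 1 RPKM, and the log2 fold change of 0.17 (SE 0.16) turned to -0.06 after median ratio scaling. Cdt1, which brings the helicase to the origin and is held in check by geminin, was at 2.21, 2.53 and 3.57 RPKM in the WT libraries and 3.64, 2.66 and 4.89 RPKM in dnTCF4 (log2 fold change 0.32, SE 0.24, limma adjusted p = 0.70), with groups that overlapped. Cdc6, the loading ATPase, was at 40.1 to 45.3 RPKM in all 6 libraries, and at 34.4 to 52.7 after median ratio scaling. Orc1, the largest subunit of the origin recognition complex, was at 10.9 to 12.7 RPKM in 5 libraries and at 7.03 RPKM in dnTCF4 3.

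Cdc45 and the GINS complex bind the loaded ring and switch it on. Cdc45 was at 75.3, 68.2 and 83.2 RPKM in the WT libraries and 72.7, 83.5 and 102 RPKM in dnTCF4 (log2 fold change 0.18, SE 0.19), highest in dnTCF4 3. Gins2 was at 27.4, 28.8 and 29.1 RPKM in the WT libraries and 31.4, 23.2 and 9.70 RPKM in dnTCF4. The log2 fold change of -0.53 (SE 0.39, limma adjusted p = 0.69) was -0.07 without dnTCF4 3. By the annotation, 67.3% of the exon length of Gins2 overlaps that of Gse1, so reads of the pair may not be told apart. The GINS subunits went separate ways in dnTCF4 3, where Gins1 (13.4 RPKM, against 25.8 to 60.3 RPKM elsewhere) and Gins2 were lowest, Gins4 was highest (10.9 RPKM, against 6.53 to 9.23 RPKM) and Gins3 (2.99 RPKM) lay within the range of the others. Mcm10, which stabilises the new fork, was at 11.7 to 16.6 RPKM with dnTCF4 3 inside that range.

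Primase and the replicative polymerases make the new strands. Pole, the catalytic subunit of polymerase ε on the leading strand (GRCm38 chromosome 5, 110286306 to 110337474), was at 7.07, 7.56 and 8.80 RPKM in the WT libraries and 9.55, 12.6 and 11.6 RPKM in dnTCF4. The genotypes did not overlap. Its log2 fold change of 0.47 (SE 0.18, 95% interval 0.04 to 0.90) was the largest positive value among the 41 and was not called (limma adjusted p = 0.49), and it was 0.26 after median ratio scaling and 0.45 without dnTCF4 3. Prim1, the catalytic subunit of primase, was at 89.0, 84.2 and 87.8 RPKM in the WT libraries and 92.1 and 89.0 RPKM in dnTCF4 1 and 2, with 118 RPKM in dnTCF4 3. Pola1, the catalytic subunit of the polymerase that works with primase, was at 10.1 to 16.2 RPKM in the WT libraries and 12.8 to 21.6 RPKM in dnTCF4. Its partner Pola2 had the opposite shape, with 40.7 RPKM in WT 2 and 8.07 RPKM in dnTCF4 3 against 15.4 to 23.5 RPKM in the other 4 libraries. Of the lagging-strand polymerase δ, both subunits among the 41 genes had that shape as well: Pold2 was at 56.9 RPKM in WT 2, 8.98 RPKM in dnTCF4 3 and 17.5 to 28.8 RPKM in the others, and Pold1 at 6.42, 2.34 and 3.84 to 6.14 RPKM. The other subunits did not, with Pold3 at 40.6 to 45.1 RPKM in all libraries and Pold4 highest in dnTCF4 1 (51.9 RPKM), lowest in dnTCF4 3 (21.7 RPKM) and at 31.5 RPKM in WT 2.

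PCNA is the ring that holds polymerases on DNA, and the 5-subunit RFC opens and closes it. Pcna (GRCm38 chromosome 2, 132249162 to 132253314), the most abundant of the 41 genes, was at 266, 270.3 and 279 RPKM in the WT libraries and 317, 273.5 and 136 RPKM in dnTCF4. The dnTCF4 values held both the highest and the lowest of the 6. After median ratio scaling WT values ran from 262 to 320.0 and WT 1 was highest, with dnTCF4 3 lowest again at 113. Its log2 fold change was -0.25 (SE 0.32) and turned to 0.12 without dnTCF4 3. Rfc1, the large subunit of the loader, was at 32.9, 31.0 and 35.9 RPKM in the WT libraries and 35.8, 40.0 and 47.4 RPKM in dnTCF4 (log2 fold change 0.29, SE 0.18, limma adjusted p = 0.65), with groups that overlapped by 1 pair of values. Among the small subunits Rfc4 was highest in dnTCF4 3 (222 RPKM, against 156 to 176 RPKM) and Rfc2 lowest there (92.4 RPKM, against 128 to 145 RPKM). Rfc3 stayed between 49.5 and 61.1 RPKM in all libraries, and Rfc5 was the scarcest, at 3.29 to 6.25 RPKM.

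RPA protects single-stranded DNA as a complex of 3 subunits. Rpa3, the smallest, was at 195, 192 and 194 RPKM in the WT libraries and 220.6, 211 and 299 RPKM in dnTCF4, so the groups did not overlap. After median ratio scaling they did, at 182 to 235 in WT and 200.2 to 251 in dnTCF4. The log2 fold change was 0.31 (SE 0.19, limma adjusted p = 0.64), 0.08 after median ratio scaling and 0.16 without dnTCF4 3. Rpa1 and Rpa2 were lowest in dnTCF4 3, at 24.3 RPKM (64.7 to 90.2 RPKM in the others) and 40.0 RPKM (104 to 134 RPKM in the others). Of the enzymes that finish the lagging strand, the nuclease Fen1 was at 5.55, 14.8 and 5.84 RPKM in the WT libraries and 6.82, 6.40 and 1.24 RPKM in dnTCF4, the widest spread among the 41. Its log2 fold change was -0.81 (SE 0.55, limma adjusted p = 0.68), -0.23 without dnTCF4 3 and 0.19 with WT 2 also left out. Exons of other genes, among them Tmem258, cover 84.2% of the exon length of Fen1, so its values are uncertain. The ligase Lig1 was at 36.5, 60.4 and 45.5 RPKM in the WT libraries and 51.6, 48.3 and 42.4 RPKM in dnTCF4 (log2 fold change 0.02, SE 0.22).

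Ribonucleotide reductase makes deoxynucleotides, and Tyms, Dut and Tk1 supply thymidylate and keep uracil out of DNA. Rrm1, its large subunit, was at 85.6, 89.4 and 94.2 RPKM in the WT libraries and 81.2, 111 and 109 RPKM in dnTCF4 (log2 fold change 0.15, SE 0.18). The small subunit Rrm2, whose protein is limited to S phase, was at 11.6 to 16.3 RPKM in the WT libraries and 12.3 to 19.0 RPKM in dnTCF4. Dut was at 6.02, 6.503 and 9.57 RPKM in the WT libraries and 9.51, 7.06 and 13.6 RPKM in dnTCF4 (log2 fold change 0.39, SE 0.27, limma adjusted p = 0.69), with groups that overlapped. Tyms was highest in WT 2 (66.5 RPKM) and lowest in dnTCF4 3 (16.4 RPKM), and Tk1 ran from 44.8 to 59.3 RPKM with dnTCF4 3 inside that range. Of the genes that copy chromatin, Chaf1b, a subunit of the CAF-1 histone chaperone, was at 45.1, 46.5 and 45.5 RPKM in the WT libraries and 48.2, 39.7 and 29.7 RPKM in dnTCF4 (log2 fold change -0.24, SE 0.21). Its partner Chaf1a, of whose exon length 52.5% overlaps Ubxn6, was at 2.19, 3.51 and 4.05 RPKM in the WT libraries and 3.06, 2.37 and 2.04 RPKM in dnTCF4 (log2 fold change -0.27, SE 0.22). Uhrf1, which brings the maintenance DNA methyltransferase to new strands, was at 17.5 to 31.5 RPKM in the WT libraries and 13.9 to 26.2 RPKM in dnTCF4.

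The farthest departures among the replication genes came from single libraries. Each library was set against the median of the other 5 on the log2(RPKM + 1) scale. In dnTCF4 3, 12 of the 41 genes were lower by at least 1, which is 2-fold, where 9.45% of all genes tested were: Mcm3, Mcm5, Mcm7, Gins1, Gins2, Pola2, Pold2, Pcna, Rpa1, Rpa2, Fen1 and Tyms. Pcna, at 2.02-fold by RPKM, was the one nearest to that line, and Pold1, at 2.07-fold by RPKM and a log2 shift of -0.81 with the pseudocount, was just outside it. In the other 5 libraries 0 of the 41 genes were that far down, where 1.4% (WT 1), 1.25% (WT 2), 0.662% (WT 3), 1.4% (dnTCF4 1) and 1.72% (dnTCF4 2) of all genes were. In the upward direction 3 of the 41 were at least 2-fold over in WT 2, Gins1, Pold2 and Fen1, where 2.28% of all genes were. In the others 0 of 41 were, where 2.83% (WT 1), 1.59% (WT 3), 1.44% (dnTCF4 1), 0.742% (dnTCF4 2) and 1.96% (dnTCF4 3) of all genes were. A further 12 genes were lower in dnTCF4 3 by less than 2-fold and 17 were higher, with Dut (0.86) and Mcm6 (0.82) the farthest up. The number at least 2-fold lower was again 12 after median ratio scaling, for which the share over all genes is not given. That scaling divides dnTCF4 3 by the largest factor of the 6 libraries (1.19) and so lowers all its values. WT 2 went the other way for many of them, with the highest value of the 6 libraries in 15 of the 41 genes, where it was highest for 16.3% of all genes tested. It was highest in 10 of the 12 that were lower by 2-fold in dnTCF4 3 and in 0 of the 17 that were higher there. These groups were cut against a median to which WT 2 contributes, and no share of all genes is given for them. Across the 41 genes the shifts in WT 2 and dnTCF4 3 had a Spearman correlation of -0.89. It is a description, since each shift is measured against a median to which the other library contributes.

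**Figure D3:**
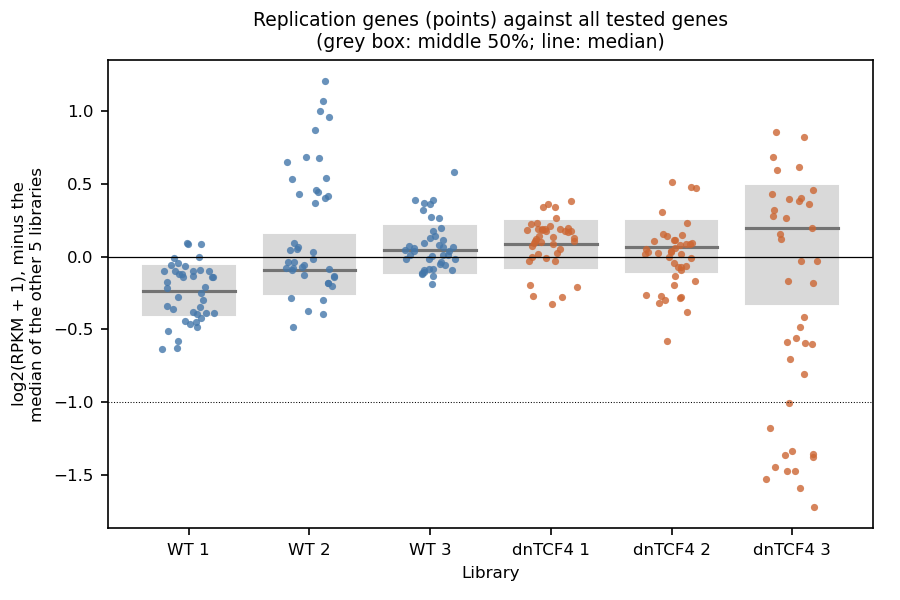
Log2(RPKM + 1) of each replication gene (points) in each library, minus the median of the other 5 libraries, with the middle 50% (grey box) and median (line) of all 11326 genes tested and a dotted line at 2-fold lower. In dnTCF4 3 the points spread from -1.72 to 0.86 and 12 of 41 lie at or under the dotted line, while in WT 2 they reach up to 1.21.

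Those 12 genes carried most of the negative fold changes. All 12 had a lower mean log2 value in dnTCF4 than in WT, the median difference being -0.54, and without dnTCF4 3 that median was -0.07. For the 17 genes that were higher in dnTCF4 3 the medians were 0.18 and 0.12. These groups were made from the values of dnTCF4 3 itself, so the first median of each pair follows from the choice. The second leaves that library out. It is not free of the choice either, because the groups were cut against a median of the other libraries, WT 2 among them. With WT 2 and dnTCF4 3 both left out, 0 of the 41 genes were called, with 0 at an unadjusted p under 0.05 (limma). Of the 41, 30 had higher values in dnTCF4, and the median log2 fold change was 0.10, with 0.14 over the whole set of tested genes. The shares of all genes that were called, passed that p or had higher values are not given for this fit. It has fewer libraries per group, so its counts are not read as a result about the 41.

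Ratios between subunits show the same thing free of scaling, because any factor common to a library drops out. The ratio of Mcm6 to Mcm3 by RPKM was 0.0776 to 0.167 in 5 libraries and 0.691 in dnTCF4 3, which is 5.12 times the median of the others. For Mcm6 to Mcm7 it was 0.141 to 0.381 against 1.12. The ratio of Rpa3 to Rpa1 was 2.13 to 3.09 against 12.3, and that of Rpa3 to Rpa2 was 1.43 to 2.04 against 7.48. Rfc4 to Rfc2 was at 1.15 to 1.34 in 5 libraries and 2.40 in dnTCF4 3. Prim1 to Pola2 was at 2.07 to 5.77 against 14.6, and Cdc45 to Gins2 at 2.31 to 3.60 against 10.5. The ratio with Gins2 is uncertain, since 67.3% of the exon length of that gene overlaps Gse1. Rrm1 to Rrm2 was inside the range of the other libraries in dnTCF4 3, at 5.72 against 5.37 to 9.05. WT 2 had the lowest value of all of these ratios other than Cdc45 to Gins2 and Rrm1 to Rrm2, which were lowest in dnTCF4 1. The pairs were picked with the values known and carry no test. They show that subunits of 1 complex shifted unequally in dnTCF4 3, not which of them moved.

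**Figure D4:**
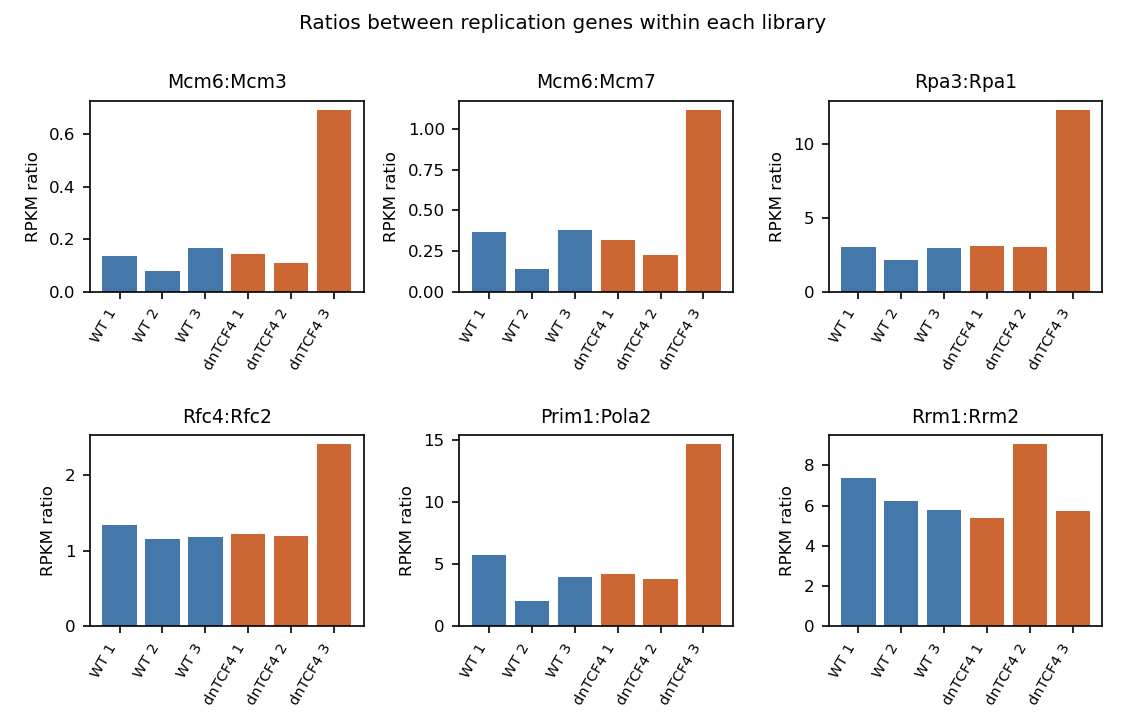
RPKM ratio of 6 pairs of replication genes within each of the 6 libraries (blue WT, orange dnTCF4; bars start at 0, 1 library per bar). In 5 of the 6 panels dnTCF4 3 stands above all other libraries, for instance at 12.3 for Rpa3 to Rpa1 against 2.13 to 3.09, while Rrm1 to Rrm2 shows no such step.

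Base composition moved with these shifts, and not only in dnTCF4 3 and WT 2. Transcripts of the 41 genes had a GC content of 40.4% to 60.7%, with a median of 49.4% against 49.2% for the 9226 tested protein-coding genes. The 12 genes lower by 2-fold in dnTCF4 3 had a median of 52.2%, the 12 lower by less 53.6%, and the 17 higher ones 47.3%. Across the 41 genes, the shift in dnTCF4 3 had a Spearman correlation with GC content of -0.42, and that in WT 2 of 0.44. For the same genes it was -0.33 in WT 1, -0.02 in WT 3, 0.38 in dnTCF4 1 and -0.10 in dnTCF4 2. Across the tested protein-coding genes, which share each library's depth and preparation, the values were -0.35 and 0.30. In the other 4 libraries they were -0.19 (WT 1), 0.09 (WT 3), 0.31 (dnTCF4 1) and -0.25 (dnTCF4 2). Single genes departed from this: Cdt1, at 58.8% GC, was higher in dnTCF4 3 and Pcna, at 45.3% GC, was lower. Summed levels of 10 neutrophil markers were also highest in dnTCF4 3, at 7598 RPKM against 621 to 3122 RPKM in WT and 3073 and 3724 RPKM in dnTCF4 1 and 2, with 0 of the 10 at 0 in all libraries. S100a8 (2948 RPKM) and S100a9 (2601 RPKM) made up most of that sum. Cxcr2 and Mmp9 were highest in WT 3, and the other markers in dnTCF4 3. Summed levels of 10 erythroblast, 12 B and plasma cell and 6 T cell markers were not highest in dnTCF4 3. The erythroblast sum there was 447 RPKM, close to the highest, 455 RPKM in dnTCF4 2. It was 113 to 336 RPKM in WT and 329 RPKM in dnTCF4 1. The B and plasma cell sum was 11635 RPKM, against 50680 to 95664 RPKM in WT and 11079 and 5066 RPKM in dnTCF4 1 and 2. The T cell sum was lowest in dnTCF4 3, at 16.8 RPKM against 18.0 to 63.3 RPKM. Among the sort's markers Kit was lowest in dnTCF4 3 (35.5 RPKM) and Cd48 (1415 RPKM) and Slamf1 (1.18 RPKM) were highest. The summed level of 7 gate and progenitor markers was highest there, at 1797 RPKM against 1217 to 1645 RPKM, and most of that sum was Cd48. Of the others Cd34 was lowest there (171 RPKM), and Ly6a, Flt3 and Ptprc lay inside the range of the other libraries. The part of base composition and of other cells in the shifts was not tested.

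**Figure D5:**
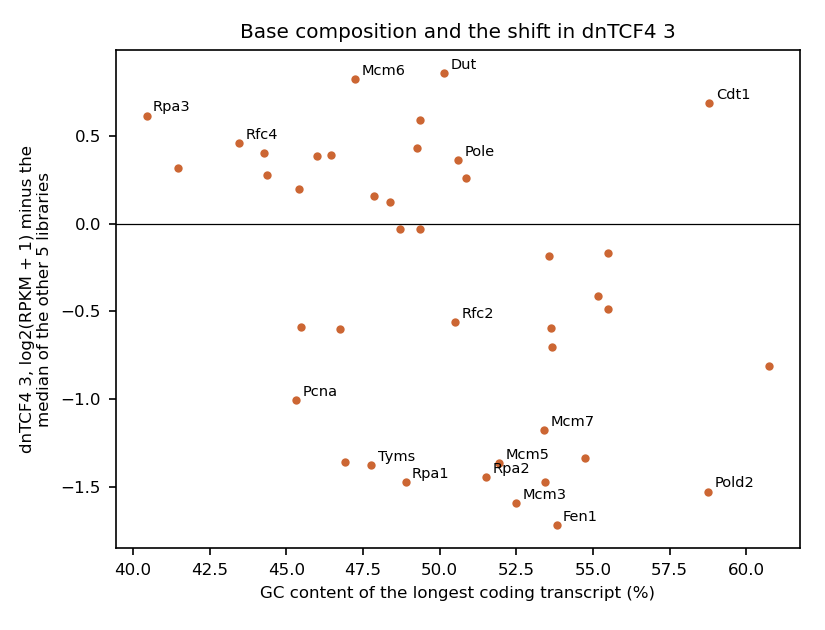
Shift of each replication gene in dnTCF4 3 (log2(RPKM + 1) minus the median of the other 5 libraries) against the GC content of its longest coding transcript, 1 point per gene. The 5 genes with the lowest GC content all lie above 0 and most genes with a high GC content lie below it, with a Spearman correlation of -0.42 over 41 genes and Cdt1 far from the rest.

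Promoters with E2F motifs are shown as a description. In dnTCF4 3, lower and higher values were found both among genes that hold a motif and among genes that do not. RefSeq promoter sequences (GRCm38.p6) were matched for 35 of the 41 genes. The 250 bases before the RefSeq start were searched on both strands for TTTCCCGC, TTTCGCGC, TTTGCCGC and TTTGGCGC. At least 1 of these words was found in 9 of the 35 (25.7%), in 4.198% of the 7790 tested genes with a promoter sequence, and in 2.16% of all 27025 genes in the promoter table. The 4 most abundant genes with a match are printed 5′ to 3′ on the gene's strand, with the matches in capitals, and Mcm6 was added after its values were seen. The Mcm5 window is chr8:75109259-75109508 (plus strand), with 2 overlapping matches, and Mcm7 (minus strand) is at chr5:138171884-138172133, the one of 2 annotated starts that has a match. Rfc3 (minus strand) is at chr5:151651209-151651458, Cdc6 (plus strand) at chr11:98907901-98908150 and Mcm6 (minus strand) at chr1:128359706-128359955, with 3 matches of which 2 overlap. By the GENCODE coordinates the Cdc6 gene begins at 98907801 and the Mcm7 gene reaches to 138172422. Their windows thus lie inside the gene, not upstream of its outermost start. The Rfc3 window overlaps its gene in part, which reaches to 151651242.
Mcm5: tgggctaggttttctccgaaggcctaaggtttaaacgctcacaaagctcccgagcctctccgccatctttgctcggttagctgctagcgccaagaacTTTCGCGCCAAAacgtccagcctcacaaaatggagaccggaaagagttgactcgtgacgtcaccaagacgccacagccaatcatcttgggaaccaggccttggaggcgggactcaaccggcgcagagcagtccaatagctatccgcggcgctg
Mcm7: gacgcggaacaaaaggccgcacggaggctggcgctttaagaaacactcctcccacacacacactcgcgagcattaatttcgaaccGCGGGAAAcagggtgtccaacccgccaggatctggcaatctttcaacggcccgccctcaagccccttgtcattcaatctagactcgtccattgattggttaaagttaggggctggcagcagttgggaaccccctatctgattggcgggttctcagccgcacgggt
Rfc3: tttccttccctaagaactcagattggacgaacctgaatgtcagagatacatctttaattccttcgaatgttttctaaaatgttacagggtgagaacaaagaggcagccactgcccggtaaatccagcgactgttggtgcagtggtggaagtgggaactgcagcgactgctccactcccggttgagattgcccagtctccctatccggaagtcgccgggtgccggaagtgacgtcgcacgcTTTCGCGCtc
Cdc6: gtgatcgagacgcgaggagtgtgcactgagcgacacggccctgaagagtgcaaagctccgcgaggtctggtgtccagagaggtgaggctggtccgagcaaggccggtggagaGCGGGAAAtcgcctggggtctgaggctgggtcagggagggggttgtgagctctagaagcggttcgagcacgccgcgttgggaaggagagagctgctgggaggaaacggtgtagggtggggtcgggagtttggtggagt
Mcm6: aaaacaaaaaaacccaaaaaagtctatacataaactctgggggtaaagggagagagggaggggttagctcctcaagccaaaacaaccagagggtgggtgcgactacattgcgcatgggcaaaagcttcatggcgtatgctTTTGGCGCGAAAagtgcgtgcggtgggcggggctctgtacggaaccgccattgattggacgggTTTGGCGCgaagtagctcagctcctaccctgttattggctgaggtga

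By RPKM, Mcm5 and Mcm7 were 2.61-fold and 2.30-fold under the median of the other libraries in dnTCF4 3, Mcm6 was 1.80-fold over it, and Rfc3 (1.09-fold over) and Cdc6 (1.02-fold under) were close to it. For the other 4 genes with a match the log2 shift in dnTCF4 3 was -0.60 (Orc1), -0.70 (Uhrf1), 0.16 (Gins3) and 0.32 (Pola1). Genes without a match also went both ways, from -1.72 (Fen1) to 0.86 (Dut). The part of E2F factors in the shifts was not tested. A match is a run of letters and not a measured binding site.

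Other genes of the same pathways, in lists that hold none of the 41, were not called either. Of 39 further replication factors 37 were tested, with 0 higher and 0 lower by limma, 0 at an unadjusted p under 0.05, and a median log2 fold change of 0.04. The smallest p values were those of Pole4, an accessory subunit of polymerase ε, at 11.1 ± 0.918 RPKM for WT and 14.6 ± 2.12 for dnTCF4 (SD, n = 3 each, limma adjusted p = 0.59), and of Orc5, an origin recognition subunit, at 20.9 ± 0.653 and 26.1 ± 2.10 RPKM (limma adjusted p = 0.60). In dnTCF4 3, 3 of the 37 were at least 2-fold under the median of the other libraries, where 9.45% of all genes tested were. All 18 further nucleotide enzymes were tested, with 0 called, 0 at an unadjusted p under 0.05 and a median of -0.12. Samhd1, which breaks down deoxynucleotides, was at 10.1 ± 0.238 RPKM for WT and 13.2 ± 1.22 for dnTCF4 (limma adjusted p = 0.55), and Umps, of pyrimidine synthesis, at 148, 167 and 141 RPKM in the WT libraries and 144, 130.1 and 39.9 RPKM in dnTCF4. Of these enzymes 5 of 18 were at least 2-fold lower in dnTCF4 3, against the same 9.45% of all genes tested.

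E2F factors and their partners are the regulators of many replication genes. Of 10 such genes 9 were tested, 0 were called by limma, and 2 had an unadjusted p under 0.05, where 9.62% of all tested genes passed. Tfdp2, a dimer partner of E2F, was at 4.40, 4.60 and 4.97 RPKM in the WT libraries and 5.70, 6.56 and 8.88 RPKM in dnTCF4 (log2 fold change 0.49, SE 0.20, limma adjusted p = 0.50). E2f2 was at 0.929, 0.912 and 1.40 RPKM in the WT libraries and 1.85, 1.41 and 1.97 RPKM in dnTCF4 (log2 fold change 0.40, SE 0.17, limma adjusted p = 0.52). Values of the genotypes did not overlap in either gene, where 15.4% of all tested genes were apart and higher. For E2f2 the gap was narrow, from 1.404 RPKM in WT 3 to 1.411 RPKM in dnTCF4 2. The differences were 0.29 and 0.27 after median ratio scaling. In dnTCF4 3, 0 of the 9 were at least 2-fold lower, where 9.45% of all genes tested were.

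Mitosis genes, which act after replication, had their highest and lowest summed levels in other libraries than the replication genes. The 22 were all tested, with 0 called by limma and 0 at an unadjusted p under 0.05. Values were higher in dnTCF4 for 19 of 22, where 68.5% of all tested genes were (median log2 fold changes 0.30 and 0.14). Median ratio scaling left 13 of 22 higher, where 41.4% of all genes were (medians 0.07 and -0.05). WT 1 was lowest of the 6 libraries in 19 of 22 (9 of 22 after median ratio scaling), as it was for 36.4% of all genes tested. Of the 22, 1 was at least 2-fold lower in dnTCF4 3, where 9.45% of all genes tested were. Their summed level was 546, 861 and 939 RPKM in the WT libraries and 703, 1080.2 and 987 RPKM in dnTCF4, and that of the 41 replication genes was 2137, 2702 and 2326 RPKM in the WT libraries and 2483, 2322 and 1896 RPKM in dnTCF4. The replication sum was thus highest in WT 2 and lowest in dnTCF4 3, and the mitosis sum highest in dnTCF4 2 and lowest in WT 1. Nusap1, a spindle protein, was at 73.9 ± 16.2 RPKM for WT and 104.6 ± 32.8 for dnTCF4, and Cdk1, the kinase of mitotic entry, at 67.9 ± 15.5 and 85.7 ± 20.4 RPKM (SD, n = 3 each, limma adjusted p = 0.66 and 0.70). WT 1 also had the highest immunoglobulin share (44.1%), and the part of this in the low mitosis values was not tested.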

How the data were processed

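Polyadenylated RNA from sorted ST-HSC gave 3 WT and 3 dnTCF4 libraries. The authors deposited 1 table of RPKM values. The tools named per the submitters' processing notes are edgeR, DESeq2, featureCounts and STAR, and the builds named are GRCm38 and mm10. Their roles and versions, the annotation and the treatment of shared reads were not given in the sources used here. Per the labels' protocols, libraries were made with SMART-Seq v4 and Nextera XT, a chemistry that does not mark strand, so overlapping genes can share reads.

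Columns were matched to samples by the names in the descriptions. Exon lengths, coordinates, transcripts and gene types came from GENCODE M21 (GRCm38), which matched 49695 of 53677 symbols. RPKM times exon length fell on whole reads within 0.02 of a read for 95.6% to 96.1% of genes under 200 reads, which gave the depth of each library. The test was that of limma 3.58.1 (R 4.3.3; two-sided, mean-variance trend, genotype as the only term) on log2(RPKM + 1), for genes that averaged 1 RPKM or more. On data simulated for dnTCF4 against WT (11326 genes), limma recovered 39 of 100 genes changed 2-fold and 78 of 100 changed 4-fold, with 1 false call, so a 2-fold change of a single gene could often be missed. Intervals cover the spread between libraries. Python 3.11.15 with numpy 2.4.6 and pandas 2.3.3 made the tables, and matplotlib 3.10.9 the plots.

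The members and lists were chosen with earlier results of these data known. Values of every library are printed for the gene with the highest mean and the gene with the smallest p in each of 9 role groups and for genes whose genotypes did not overlap (16 genes). Of each further list the 2 genes with the smallest p are named. Other genes named with their values were chosen after these were seen. Libraries with the same number deviated together from the means of their genotypes (correlations across genes of 0.17, 0.35 and 0.30, all above 0.1). Correlations between libraries of different numbers are not given, so these values do not establish that the numbers pair the samples. The main fit left the replicate number out, and the fit with the replicate block was an alternative. Further alternatives were median ratio scaling, removal of immunoglobulin genes, a pseudocount of 0.1, other filters, voom on recovered reads and leaving out libraries.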

Additional observations from a re-analysis of the deposited data

How the results depend on the processing

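None of the 41 replication genes was called by limma or voom under any alternative run, and the 4 further pathway lists gave 0 calls as well. Shares of all genes called are given only for the main fit and the replicate block. With the replicate block 0 of 41 were called, with a smallest adjusted p of 0.29 (0.49 without it), and it changed no call among the 41 genes and the 4 lists, while calls over all genes tested went from 34 to 49. The count of genes with higher values in dnTCF4 was 21, and was 7 after median ratio scaling, 7 with immunoglobulin genes left out and 7 with dnTCF4 3 left out under median ratio scaling. When each library was left out in turn it was 16 to 23, and the median log2 fold change was -0.15 to 0.03. The 3 genes without overlap were all higher in dnTCF4. With immunoglobulin genes left out there were 6, all lower, so Orc6, Pole and Rpa3 were not among them (5.90% of all genes were apart and higher and 4.72% apart and lower). Leaving out 1 library gave 3 to 10: without dnTCF4 1 there were 10, 7 higher (25.3% of all genes) and 3 lower (4.41%), and without WT 1 there were 7, 5 higher (19.8%) and 2 lower (7.45%). Without WT 2 there were 5, 4 higher (17.1%) and 1 lower (2.89%), and without WT 3 or dnTCF4 2 there were 7, all higher (31.8% and 24.8%). With WT 2 and dnTCF4 3 both left out there were 13, 12 higher (30.9%) and 1 lower (5.05%). Fewer libraries per group make groups without overlap more frequent. The log2 ratio of summed RPKM, dnTCF4 over WT, was -0.10. Median ratio scaling gave -0.32, and rescaling without immunoglobulin genes -0.29. Log2 fold changes that turned sign after median ratio scaling were those of Orc6 (-0.058), Cdc45 (-0.057), Prim1 (-0.049), Lig1 (-0.21) and Rrm1 (-0.087). With immunoglobulin genes left out they were -0.027, -0.025, -0.017, -0.18 and -0.055 for these 5 genes. Under median ratio scaling without dnTCF4 3 they were -0.035, -0.11, -0.10, -0.061 and -0.081, and -0.0062 for Rpa3. Lig1 was at -0.15 to 0.21 and Pcna at -0.49 to 0.12 when 1 library was left out. With WT 2 and dnTCF4 3 both left out, an alternative chosen after seeing the data like the one before it, Mcm3 was at 0.11, Cdc45 at -0.023, Pcna at 0.11 and Fen1 at 0.19. The cause of these turns was not tested. A pseudocount of 0.1, no filter, a mean of at least 5 RPKM (36 of 41 genes) and voom (36 of 41 genes) turned the sign of 0 of the 16 genes, where they could be fitted.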
